A study of Danio rerio with 15 samples.

Results

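Genes that encode subunits of the proteasome, its assembly factors and its regulators were followed in the RNA of whole zebrafish larvae. Members were all genes whose symbol starts with psm, a letter from a to g and a digit, which gave 51 of the 24609 genes listed. Of these 51, 47 had enough reads to be tested among 19006 genes. By role they were 15 core subunits, 19 subunits of the regulatory cap, 5 inducible (immune) catalytic subunits, 6 assembly chaperones, 4 activators and 1 inhibitor, with 1 gene, psmc3ip, that shares the name but encodes a meiotic recombination factor.

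The series asked how far Tfeb and Tfe3, transcription factors that switch on lysosomal genes, act in larvae challenged with an inflammatory particle. It holds 15 libraries in 5 groups of 3, all from TL larvae, a laboratory strain, collected 4 days post fertilization and raised in water with methylene blue and PTU, a blocker of pigment synthesis. Wild type and tfeb; tfe3a; tfe3b triple mutants were each sampled without injection and after an injection of zymosan A, particles of yeast cell wall, and rraga mutants were sampled uninjected. RagA, the product of rraga, is a small GTPase at the lysosome that, in fed cells, holds these factors outside the nucleus. No group received an injection without zymosan, so injection and zymosan cannot be told apart, and rraga mutants had no injected group. The lesion of each line, and how many larvae went into a library, are not given in the sources used here.

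The proteasome degrades proteins that carry chains of ubiquitin. Its core particle is a barrel of stacked rings, in which outer alpha subunits gate the entrance and inner beta subunits cut, with Psmb5 giving the chymotrypsin-like, Psmb6 the caspase-like and Psmb7 the trypsin-like activity. The cap recognises ubiquitin, unfolds the substrate with a ring of ATPases (the psmc genes) and threads it into the barrel, while non-ATPase subunits (psmd genes) hold the cap together and remove ubiquitin. In immune cells and under interferon, vertebrates exchange the catalytic beta subunits for inducible ones, and other activators can replace the cap.

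Library totals lay between 12314113 and 17566540 counts, and mitochondrial genes took 7.99% to 14.01% of them. In the check of the targeted genes, tfe3b was lower in triple mutants without zymosan (log2 fold change -3.84 ± 0.87, adjusted p = 0.00455) and with it (log2 fold change -3.17 ± 0.74, adjusted p = 0.00556), while tfeb and tfe3a passed the test in neither comparison. The level of rraga was higher in rraga mutants (log2 fold change 0.83 ± 0.14, adjusted p = 0.000338), and without the lesion an RNA level does not check these labels. Replicate 3 of zymosan-injected wild type stood apart from its group: chi-square per degree of freedom of its counts against the other replicates was 26.4 and 24.3, against 3.94 to 16.7 in the other 13 pairs. Of 8 markers of larval tissues 7 were tested, and the muscle gene mylpfa had at most 0.515 CPM in a library while the muscle gene actc1b had at least 25410 CPM. The embryonic globin gene hbbe1.1 was higher in triple mutants without zymosan (log2 fold change 0.97 ± 0.16, adjusted p = 0.000172) and with it (1.03 ± 0.16, adjusted p = 7.88e-05) and in rraga mutants (0.99 ± 0.16, adjusted p = 0.000143). The liver gene fabp10a was lower in rraga mutants than in wild type (-0.46 ± 0.13, adjusted p = 0.0177) and than in triple mutants (-0.66 ± 0.13, adjusted p = 0.000539), where the neuronal gene elavl3 was lower too (-0.37 ± 0.10, adjusted p = 0.0117). The part of these tissue markers in the results on the mutants was not tested. These are bulk samples, so fewer cells of a type and less RNA per cell cannot be told apart.

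Core and cap medians differed between libraries of a group as well as between groups. Relative to the mean of uninjected wild type, the median of the 15 core genes on the log2 CPM scale (CPM being counts scaled by the TMM-adjusted library size) was -0.08, 0.00 and 0.05 in the uninjected wild-type libraries, 0.21, 0.21 and -0.06 with zymosan, -0.05, -0.25 and -0.05 in uninjected triple mutants, -0.03, -0.07 and 0.14 in injected triple mutants and 0.04, 0.06 and -0.06 in rraga mutants. The same median over the 19 cap genes was 0.00, -0.05 and 0.05 in uninjected wild type, 0.18, 0.15 and -0.14 with zymosan, -0.13, -0.36 and -0.20 in uninjected triple mutants, -0.16, -0.24 and -0.02 in injected triple mutants and 0.15, 0.22 and 0.01 in rraga mutants. The median over all genes tested stayed between -0.01 and 0.01 in every library. Replicate 2 of the uninjected triple mutants, where both medians were lowest, also had the lowest mitochondrial share, 7.99%, and replicate 3 of zymosan-injected wild type had 9.40% against 14.0% and 13.5% in replicates 1 and 2 of its group. The muscle gene actc1b was lowest in the former library too, at 25410 CPM. In the latter it was at 30120 CPM, against 41840 and 41880 in replicates 1 and 2. Its means were 36000 ± 2849 CPM in uninjected and 37950 ± 6777 in injected wild type. Triple mutants had 30060 ± 4473 uninjected and 32450 ± 3459 injected, and rraga mutants 36430 ± 996 (SD, n = 3). What part these library differences have in the results was not tested, and results that rest on either library are given without it as well.

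Levels per kilobase of transcript in uninjected wild type differed widely among the members. Among the alpha subunits psma8 was the highest at 89.7 ± 5.74 CPM per kilobase (mean ± SD, n = 3). The lowest alpha subunit was psma6l, listed beside the pair psma6a and psma6b, at 1.49 ± 0.228 CPM per kilobase. Among the constitutive beta subunits psmb1 led at 114 ± 7.54 CPM per kilobase. The catalytic subunits were unequal, with psmb7 at 91.8 ± 2.297, psmb6 at 64.99 ± 3.61 and psmb5 at only 8.14 ± 1.34 CPM per kilobase. The cap ATPases ran from psmc2 at 66.7 ± 3.02 CPM per kilobase to psmc6 at 6.41 ± 2.58. The non-ATPase cap genes ran from psmd3 at 82.8 ± 3.85 to psmd7 at 6.34 ± 0.744 CPM per kilobase. Both products of the last comparison sit in the lid of the cap. Chaperones, activators and the inhibitor stood below most core and cap genes, with overlapping ranges. Of them psmg2 at 15.9 ± 1.21, psmd9 at 10.5 ± 0.959, psme3 at 11.3 ± 3.13 and psmf1 at 9.097 ± 2.31 CPM per kilobase led or were alone in their classes. At the other end of those classes were psmg3 at 13.9 ± 2.98, psmd10 at 0.31 ± 0.0874 and psme4a at 1.48 ± 0.00625 CPM per kilobase.

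**Figure D1:**
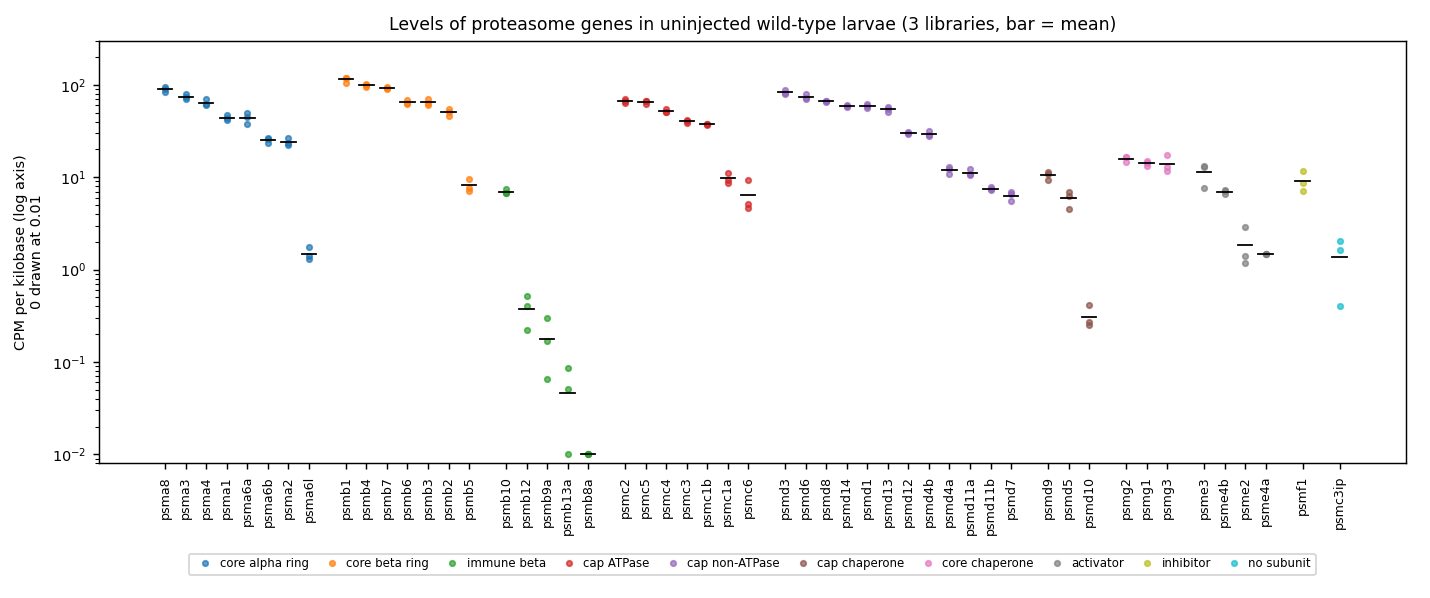
Level of each member in the 3 libraries of uninjected wild type, in CPM per kilobase of transcript on a log axis, grouped by role, with a bar at the mean; a level of 0 is drawn at 0.01. Core and cap means lie between 6.34 and 114.4 CPM per kilobase apart from psma6l, while 4 of the 5 immune genes lie at 0.379 or lower.

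Of the 5 inducible catalytic subunit genes, 4 had almost no reads in any group. In mammals the counterparts of psmb8a, psmb9a and psmb10 replace Psmb5, Psmb6 and Psmb7, and psmb12 and psmb13a are further zebrafish genes of that family. The genes psmb8a, psmb9a, psmb12 and psmb13a lie together on chromosome 19 (GRCz11), from 7105838 to 7144585, where psmb8a and psmb13a span the others and tap2a, so that their reads cannot be assigned with certainty. Over the 15 libraries psmb12 had between 0 and 17 counts, psmb9a between 0 and 4, and psmb8a and psmb13a between 0 and 3 each, too few for a test. Levels of tap2a, in the same stretch, were at most 0.573 CPM in a library. Whether these larvae carry this stretch as it stands in GRCz11 was not examined. The highest psmb12 count was in replicate 2 of zymosan-injected triple mutants, whose replicate 3 had 1.

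The exception was psmb10, which lies on chromosome 4 from 77207693 to 77218637 and was tested. Its levels were 15.8, 14.3 and 14.4 CPM in uninjected wild type, 15.5, 15.6 and 12.7 in zymosan-injected wild type. Triple mutants had 18.04, 9.64 and 14.3 CPM uninjected and 12.7, 12.2 and 11.9 injected, and rraga mutants had 9.37, 8.32 and 12.3. Uninjected triple mutants were spread the most, and the rraga libraries all lay below uninjected wild type. That difference did not pass the edgeR test (log2 fold change -0.57 ± 0.19, adjusted p = 0.0515), although it did with no filter on low counts (adjusted p = 0.0347), with DESeq2 (adjusted p = 0.043) and with only these groups fitted (adjusted p = 0.0412). Against uninjected triple mutants the rraga value was -0.48 ± 0.19, adjusted p = 0.0716, with overlapping libraries, and it passed without triple-mutant replicate 2 (adjusted p = 0.00853) or rraga replicate 3 (0.0226). Its log2 fold change with zymosan was -0.03 ± 0.19, adjusted p = 0.957 in wild type and -0.18 ± 0.19, adjusted p = 0.609 in triple mutants.

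In triple mutants without zymosan, most core and cap genes had slightly lower estimates, 1 gene rose and 4 fell. Of the 47 tested members 1 was called higher (2.13%) and 4 lower (8.51%) at an adjusted p under 0.05, against 3.93% and 5.84% of all genes tested (9.77% in either direction). The median log2 fold change was -0.14 over the core genes and -0.21 over the cap genes, against 0.00 over all genes tested, and 12 of 15 core genes and 17 of 19 cap genes lay below 0. Libraries of the groups did not overlap for 15 members that were lower (31.9%, against 15.4% of all genes) and for 3 that were higher (6.38%, against 13.6%), where 29% of all genes did not overlap in either direction. The count of 4 lower was 0 without uninjected triple-mutant replicate 2, 1 without its replicate 3 or any 1 uninjected wild-type library, 2 without any 1 injected triple-mutant library, rraga replicate 1 or injected wild-type replicate 1 or 2, and 6 without injected wild-type replicate 3. Over all genes, leaving out 1 library at a time gave 737 to 1260 lower, against 1110 with all libraries. With zymosan in both genotypes, 2 members were called higher (4.26%, against 5.21% of all genes) and 3 lower (6.38%, against 6.66%), where 11.9% of all genes were called in either direction, with medians of -0.12 over core and -0.18 over cap genes. Here 3 members were higher (6.38%, against 13.1%) and 5 lower (10.6%, against 13.9%) without overlap, against 27% of all genes in either direction. The count of 3 lower was 1 without injected triple-mutant replicate 2 or wild-type replicate 1, 0 without wild-type replicate 2 and 8 without wild-type replicate 3, and that of 2 higher was 1 without injected triple-mutant replicate 2 or 3 or wild-type replicate 2. Here leaving out any 1 library gave 863 to 1661 of all genes lower, against 1265 with all, and 667 to 1502 higher, against 990. The shares of called members with all libraries are near the background.

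**Figure D2:**
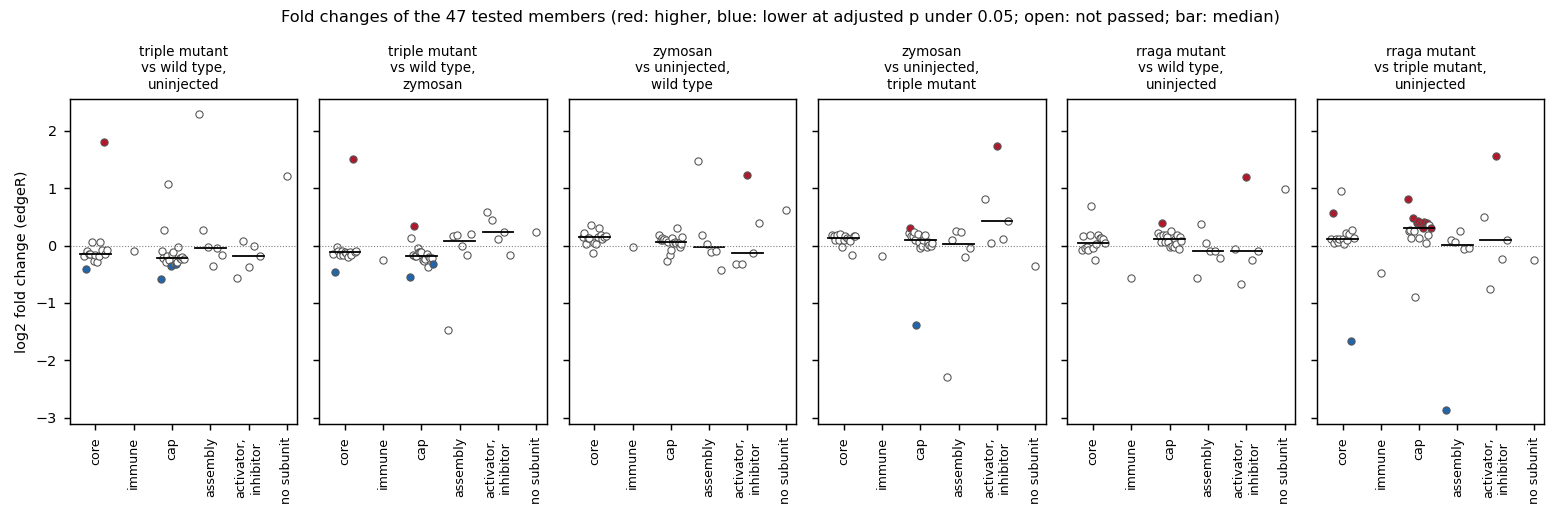
Log2 fold changes from edgeR of the 47 tested members in the 6 pairwise comparisons, by role; filled red and blue points passed an adjusted p of 0.05, open points did not, and bars mark medians. Core and cap medians lie just below 0 in both triple-mutant panels and the cap median is at 0.31 in the panel of rraga against triple mutants.

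The single large change in a core gene was psmb5, whose product carries the chymotrypsin-like site; the gene lies on chromosome 2 from 38373272 to 38392575. Its levels were 9.296, 10.03 and 12.6 CPM in uninjected wild type, 10.7, 15.1 and 8.56 in zymosan-injected wild type. Triple mutants had 39.05, 28.6 and 43.1 CPM uninjected and 38.4, 27.4 and 32.4 injected, and rraga mutants had 10.4, 9.94 and 14.6. All 6 triple-mutant libraries lay above all 9 others. The log2 fold change was 1.80 ± 0.20, adjusted p = 1.13e-06 without zymosan and 1.51 ± 0.20, adjusted p = 1.04e-05 with it, from 10.7 ± 1.75 to 36.9 ± 7.49 CPM in the uninjected groups. The call held in all 21 settings tried. Per kilobase psmb5 in uninjected triple mutants, at 28.2 CPM per kilobase, was still below psmb6 at 58.6 and psmb7 at 86.9 in the same libraries.

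The other catalytic subunits did not pass. Levels of psmb6 were 79.9, 78.6 and 87.02 CPM in uninjected wild type, 91.3, 99.96 and 80.1 in zymosan-injected wild type. Triple mutants had 79.9, 68.98 and 72.5 CPM uninjected and 75.1, 77.7 and 96.9 injected, and rraga mutants had 87.4, 90.5 and 88.6. Those of psmb7 were 114, 117 and 111 CPM in uninjected wild type, 139.5, 125 and 121 in zymosan-injected wild type. Triple mutants had 114, 97.3 and 112 CPM uninjected and 122, 110.3 and 129.9 injected, and rraga mutants had 117, 111 and 126. Groups overlapped for both in every comparison of triple mutants with wild type, and the log2 fold changes were -0.15 ± 0.11, adjusted p = 0.462 and -0.12 ± 0.11, adjusted p = 0.541 for psmb6, and -0.08 ± 0.10, adjusted p = 0.702 and -0.09 ± 0.09, adjusted p = 0.635 for psmb7, without and with zymosan.

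Genes around psmb5 moved as well. Of the 17 other tested genes within 0.5 Mb of its centre, edgeR called 10 higher and 0 lower in triple mutants without zymosan (58.8%, against 9.77% of all genes in either direction), with a median log2 fold change of 1.11. With zymosan it called 10 higher and 0 lower, with a median of 0.95. They included dhrs1, a dehydrogenase gene, at 2.23 (adjusted p = 4.82e-07) and chd8, a chromatin remodeller, at 1.40 (adjusted p = 6.58e-05), while prmt5, the tested gene nearest to psmb5, was at 1.27 and did not pass (adjusted p = 0.111). In rraga mutants against wild type 11 of the 17 neighbours were higher and 0 lower, with a median of 0.95, whereas psmb5 itself was at 0.14 ± 0.21, adjusted p = 0.74. These comparisons share the uninjected wild-type libraries. Zymosan moved the region little: 1 of 17 neighbours was called in wild type and 0 in triple mutants. The targeted genes lie elsewhere, on chromosomes 8, 11 and 14. The part of the neighbourhood in the psmb5 result was not tested.

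**Figure D3:**
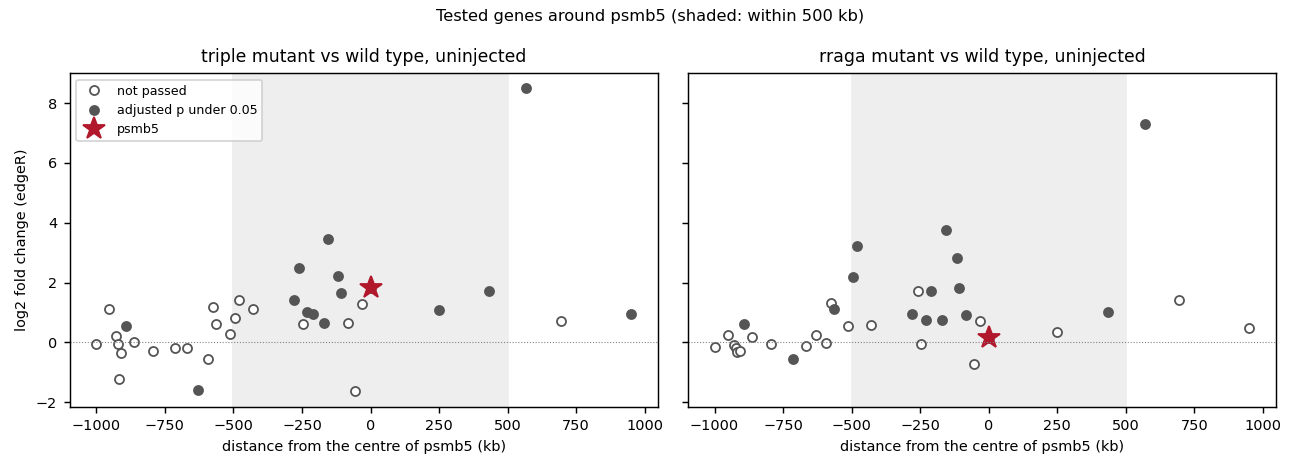
Log2 fold changes from edgeR of tested genes by distance from the centre of psmb5, in kilobases, in uninjected triple mutants (left) and rraga mutants (right) against uninjected wild type; filled points passed an adjusted p of 0.05, the star is psmb5 and shading marks 0.5 Mb on either side. Filled points above 0 lie around psmb5 in both panels, with the star at 1.80 on the left and 0.14 on the right.

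Among the alpha subunits only psma2 passed. Its levels were 39.5, 41.02 and 46.6 CPM in uninjected wild type, 49.5, 54.3 and 44.6 in zymosan-injected wild type. Triple mutants had 35.1, 30.3 and 30.6 CPM uninjected and 37.02, 32.4 and 38.4 injected, and rraga mutants had 48.1, 53.7 and 40.6. Triple mutants lay below wild type in both conditions with no overlap, by log2 fold changes of -0.40 ± 0.12, adjusted p = 0.0331 and -0.46 ± 0.12, adjusted p = 0.0115. The gene, on chromosome 16 from 43335696 to 43344859, overlaps mrpl32 on the opposite strand and atad2 on the same strand, so part of its reads may be theirs. Without zymosan the call was lost when triple-mutant replicate 2 or 3 or wild-type replicate 2 or 3 was left out (adjusted p between 0.0723 and 0.172), and with zymosan when replicate 2 of either genotype was (adjusted p = 0.0795 without the triple-mutant library and 0.0887 without the wild-type one). Of 23 tested neighbours of psma2 within 0.5 Mb, 7 were called without zymosan (30.4%, against 9.77% of all genes). With zymosan it was 6 (26.1%, against 11.9%), and 3 were lower in each condition. Their part in the psma2 result was not tested.

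In the ATPase ring psmc1a was called lower and psmc3 higher. The largest estimate in the ring was that of psmc6 without zymosan, 1.08 ± 0.35, adjusted p = 0.0546, with overlapping libraries and called in 8 of 21 settings, among them no filter (adjusted p = 0.0016) and only these groups fitted (0.0205). Levels of psmc1a, 1 of a pair of copies of its ATPase, were 27.6, 21.6 and 23 CPM in uninjected wild type, 29.5, 27.2 and 25.1 in zymosan-injected wild type. Triple mutants had 16.8, 14.4 and 16.8 CPM uninjected and 17.4, 21.6 and 16.8 injected, and rraga mutants had 35.8, 24.6 and 23.7. Every triple-mutant library lay below the lowest wild-type library of its condition, and the log2 fold change was -0.59 ± 0.16, adjusted p = 0.0155 without and -0.55 ± 0.15, adjusted p = 0.0206 with zymosan. Without zymosan the call was lost without triple-mutant replicate 2 (adjusted p = 0.0916) or wild-type replicate 1 (0.107), and with zymosan without triple-mutant replicate 1 or 3 or wild-type replicate 1 or 2 (adjusted p between 0.0651 and 0.1). Levels of psmc3 were 77.4, 71.6 and 75.7 CPM in uninjected wild type, 84.9, 76.9 and 77.5 in zymosan-injected wild type. Triple mutants had 96.8, 84.4 and 90.2 CPM uninjected and 98.3, 102 and 103 injected, and rraga mutants had 99.4, 110.3 and 86.8. It was higher in zymosan-injected triple mutants (log2 fold change 0.34 ± 0.10, adjusted p = 0.0208) with no overlap, and at 0.27 ± 0.10, adjusted p = 0.0819 without zymosan it did not pass. The zymosan call was lost without triple-mutant replicate 2 or 3 or wild-type replicate 2 (adjusted p between 0.0541 and 0.0812). Of 36 tested neighbours of psmc3 within 0.5 Mb, 9 were called with zymosan (25%, against 11.9% of all genes), 7 of them higher. Around psmc1a 0 of 7 were called in either condition. The part of the neighbours in the psmc3 result was not tested.

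Called differences of non-ATPase subunits were smaller in size than those of psmc1a and about as large as that of psmc3. Levels of psmd11a, a lid scaffold, were 54.3, 54.9 and 63.5 CPM in uninjected wild type, 54.4, 54.8 and 44.9 in zymosan-injected wild type. Triple mutants had 46.6, 42.6 and 45.8 CPM uninjected and 45.5, 45.8 and 50.1 injected, and rraga mutants had 58.9, 69.4 and 52.99. Levels of psmd14, the deubiquitinase of the lid, were 70.3, 66.7 and 68.4 CPM in uninjected wild type, 76.2, 76.1 and 61.9 in zymosan-injected wild type. Triple mutants had 59.3, 47.03 and 57.4 CPM uninjected and 61.2, 60.1 and 61.6 injected, and rraga mutants had 70.5, 67.6 and 62.8. Both were lower in uninjected triple mutants with no overlap between groups, by log2 fold changes of -0.36 ± 0.11, adjusted p = 0.0468 for psmd11a and -0.33 ± 0.10, adjusted p = 0.048 for psmd14. These 2 calls are the least firm: each held in 6 of 21 settings and was lost without any 1 of 12 libraries, with adjusted p up to 0.23 and 0.276, the exceptions being rraga replicates 2 and 3 for psmd11a, triple-mutant replicate 1 and rraga replicate 3 for psmd14, and zymosan-injected wild-type replicate 3 for both. The gene psmd14 lies on chromosome 11 from 10832560, as do the targeted genes tfeb, from 22287954, and tfe3b, from 25504215. Of 16 tested neighbours of psmd14 within 0.5 Mb, 2 were called without zymosan (12.5%, against 9.77% of all genes), both lower. Around psmd11a it was 0 of 13. The part of position and neighbours in the psmd14 call was not tested. Levels of psmd8, another lid subunit, were 99.9, 96.1 and 99.4 CPM in uninjected wild type, 115, 113 and 101 in zymosan-injected wild type. Triple mutants had 84.8, 79.1 and 88.98 CPM uninjected and 92.2, 79.3 and 90.98 injected, and rraga mutants had 109, 107 and 96.5. It was lower in triple mutants with zymosan (log2 fold change -0.32 ± 0.09, adjusted p = 0.0229), and at -0.23 ± 0.09, adjusted p = 0.149 without zymosan. The call of psmd8 was lost without triple-mutant replicate 2 (adjusted p = 0.149) or wild-type replicate 1 (0.115) or 2 (0.102), and with only the groups compared in the fit (0.0658). Without replicate 3 of zymosan-injected wild type, 8 members instead of 3 were lower and the cap median was -0.30 instead of -0.18. The count over all genes moved too, with 863 to 1661 lower when any 1 library was left out, against 1265 with all.

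**Figure D4:**
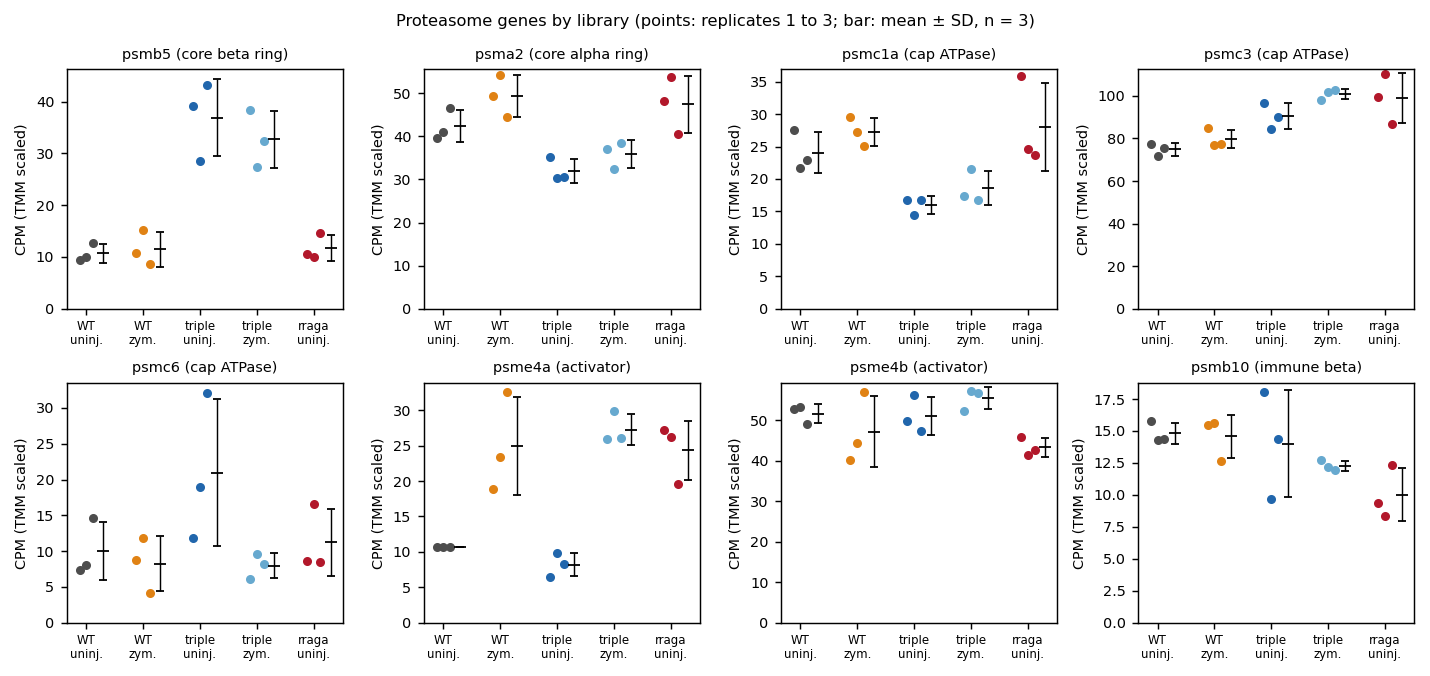
TMM-scaled CPM of 8 members in each of the 15 libraries (points, replicates 1 to 3 from left to right) with mean ± SD (n = 3), each axis starting at 0. The 6 triple-mutant libraries lie above the rest for psmb5, and the zymosan-injected and rraga libraries lie above uninjected wild type and triple mutants for psme4a.

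Zymosan left the core and nearly all of the cap without a call and raised an activator gene. In wild type 1 member of 47 was higher (2.13%, against 6.07% of all genes) and 0 lower (against 3.83%), where 9.9% of all genes were called in either direction. At an unadjusted p under 0.05, edgeR and DESeq2 each had 4 members higher, 2 of them core and 1 cap, and 1 lower, an assembly factor. The share of all genes at that unadjusted threshold was not computed, so these counts have no background beside them. In triple mutants 2 members were called higher at the adjusted threshold (4.26%, against 7.64%) and 1 lower (2.13%, against 5.18%), where 12.8% of all genes were called. In wild type 2 were higher without injected replicate 3 or uninjected triple-mutant replicate 1 or 2. In triple mutants 1 was higher without uninjected replicate 2 or any 1 injected library, while 2 were lower without uninjected replicate 2 and 0 without uninjected replicate 3 or injected replicate 1. Over all genes, leaving out any 1 library gave 815 to 1270 higher in wild type, against 1153 with all. In triple mutants it gave 1061 to 1582 of all genes higher, against 1452, and 621 to 1115 lower, against 985. Core medians were 0.15 in wild type and 0.13 in triple mutants and cap medians 0.07 and 0.10, with 14 and 13 of 15 core genes above 0. Groups did not overlap for 6 higher members in wild type (12.8%, against 13.4% of all genes) and 1 lower (2.13%, against 12.2%), and for 9 higher (19.1%, against 16.3%) and 1 lower (2.13%, against 15.3%) in triple mutants. In either direction 25.6% of all genes did not overlap in wild type and 31.7% in triple mutants.

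The gene that rose in both genotypes was psme4a, on chromosome 13 from 35689749 to 35744963, 1 of a pair of copies of the gene for PA200, a nuclear activator that caps the core in place of the ATPase cap. Its levels were 10.7, 10.6 and 10.7 CPM in uninjected wild type, 18.9, 23.5 and 32.5 in zymosan-injected wild type. Triple mutants had 6.497, 9.81 and 8.26 CPM uninjected and 25.9, 29.9 and 26.1 injected, and rraga mutants had 27.3, 26.3 and 19.6. Each injected library lay above every uninjected library of its genotype. Its log2 fold change was 1.23 ± 0.18, adjusted p = 5.83e-05 in wild type and 1.73 ± 0.18, adjusted p = 4.11e-07 in triple mutants, and both calls held in all 21 settings. The difference between these responses was 0.50 ± 0.26 and did not pass (adjusted p = 0.913). Of its 20 tested neighbours within 0.5 Mb, 2 were called in wild type (10%, against 9.9% of all genes) and 4 in triple mutants (20%, against 12.8%). Of 5 tested neutrophil markers 2 were called higher and 2 lower with zymosan in each genotype. Over all genes 6.07% were higher and 3.83% lower in wild type, and 7.64% and 5.18% in triple mutants. Mean CPM of mpx fell from 3.687 to 0.554 in wild type and from 3.097 to 0.962 in triple mutants. That of npsn fell from 8.78 to 2.82 and from 12.54 to 4.33. Means of mmp9 and an mmp13a entry rose in both genotypes, the latter from 0.122 to 1.702 and from 0.864 to 2.538. The other mmp13a entry had a lower mean in wild type and a higher one in triple mutants. The part of these markers in the psme4a result was not tested.

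The partner copy psme4b did not follow. Levels of psme4b were 52.8, 53.2 and 48.95 CPM in uninjected wild type, 40.1, 44.5 and 56.9 in zymosan-injected wild type. Triple mutants had 49.8, 56.3 and 47.2 CPM uninjected and 52.3, 57.3 and 56.7 injected, and rraga mutants had 45.8, 41.4 and 42.7. The log2 fold change of psme4b with zymosan was -0.13 ± 0.11, adjusted p = 0.563 in wild type and 0.12 ± 0.11, adjusted p = 0.589 in triple mutants. As a share of the reads of both copies, psme4a therefore took 16.9%, 16.7% and 17.96% in uninjected wild type, 32.1%, 34.6% and 36.4% with zymosan, 11.6%, 14.8% and 14.9% in uninjected triple mutants, 33.1%, 34.3% and 31.5% in injected triple mutants and 37.3%, 38.9% and 31.5% in rraga mutants. All injected and rraga libraries lay above all libraries of uninjected wild type and uninjected triple mutants. The sum of both copies was 62.3 ± 2.31 CPM in uninjected and 72.1 ± 15.7 CPM in injected wild type, and 59.3 ± 5.94 and 82.7 ± 4.43 CPM in triple mutants (SD, n = 3). Reads of such copies can be shared if their sequences are close, which was not examined.

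**Figure D5:**
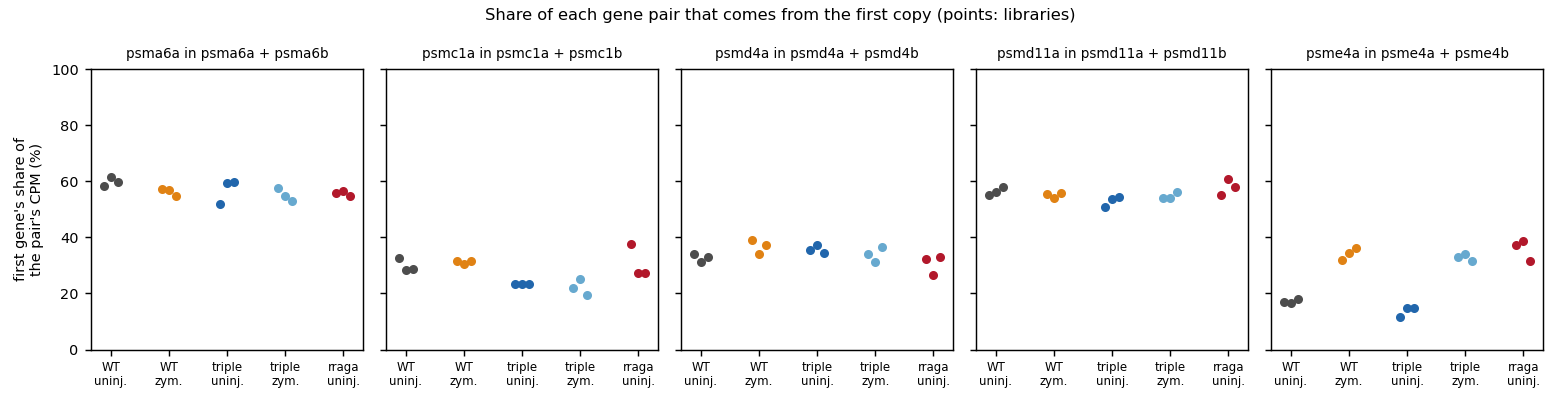
Share of a gene pair's CPM that comes from the first copy, in percent, in each of the 15 libraries, for 5 pairs of copies. The share of psme4a is between 31.5% and 38.9% in injected and rraga libraries and between 11.6% and 17.96% in the rest, and that of psmc1a is lower in triple mutants.

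In triple mutants a pair of ATPase genes, psmc1b and psmc6, also passed with zymosan, and neither passed the test of a difference between genotypes. Levels of psmc1b, the more abundant partner of psmc1a, were 56.7, 54.8 and 56.6 CPM in uninjected wild type, 63.3, 61.7 and 54.2 in zymosan-injected wild type. Triple mutants had 54.7, 47.1 and 55.6 CPM uninjected and 62.2, 64.5 and 68.9 injected, and rraga mutants had 59.4, 65.4 and 62.8. It was higher with zymosan (log2 fold change 0.31 ± 0.10, adjusted p = 0.0322) with no overlap, a call lost without triple-mutant uninjected replicate 2 (adjusted p = 0.179), without injected replicate 1, 2 or 3 (0.0507, 0.072 and 0.134) and with no filter on low counts (0.0646). Levels of psmc6 were 7.31, 8.07 and 14.6 CPM in uninjected wild type, 8.71, 11.8 and 4.15 in zymosan-injected wild type. Triple mutants had 11.9, 18.9 and 32.1 CPM uninjected and 6.09, 9.55 and 8.23 injected, and rraga mutants had 8.66, 16.6 and 8.4. It was lower with zymosan (log2 fold change -1.39 ± 0.35, adjusted p = 0.0098), with uninjected libraries spread widely above the injected ones. Leaving out uninjected triple-mutant replicate 3 gave -0.96 (adjusted p = 0.101), and leaving out injected replicate 1 gave -1.23 (adjusted p = 0.0567). The share of psmc1a in the pair was 30.0 ± 2.39% in uninjected wild type and 23.4 ± 0.135% in uninjected triple mutants, 31.3 ± 0.622% and 22.2 ± 2.75% with zymosan, and 30.8 ± 5.94% in rraga mutants (SD, n = 3), so triple mutants lay below wild type in both conditions without overlap. For the pairs of psma6, psmd4 and psmd11 the group means of the first copy's share stayed between 55.1% and 60.0%, 30.6% and 36.9%, and 53.0% and 58.0%.

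Whether the response to zymosan depended on genotype was tested as an interaction. By edgeR 0 of 47 members passed in either direction, against 0.0316% of all genes higher and 0.11% lower, 0.142% in all. At an unadjusted p under 0.05 edgeR gave 0 higher and 2 lower and DESeq2 0 and 1. The 2 were psmd10 (-3.77 ± 1.31, adjusted p = 0.585), which had at most 69 counts in a library, and psmc6 (-1.12 ± 0.51, adjusted p = 0.815). How many of all genes fell under the unadjusted threshold was not computed, so these unadjusted counts have no background.

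In rraga mutants against uninjected wild type, 2 members were called higher (4.26%, against 7.58% of all genes) and 0 lower (against 6.41%), where 14% of all genes were called. At an unadjusted p under 0.05, edgeR had 4 lower and DESeq2 3, of which 1, psmb10, passed DESeq2's adjusted test. Counts over all genes at an unadjusted p were not made, so those of the members have no background there. Leaving out any 1 library gave 802 to 1406 of all genes lower by edgeR, against 1219 with all. Of the members, edgeR called 1 lower without rraga replicate 3, uninjected triple-mutant replicate 1 or 2 or injected wild-type replicate 3. The genes that rose were psme4a, by 1.19 ± 0.18 on the log2 scale (adjusted p = 7.85e-05), in all 21 settings, and psmc3, by 0.40 ± 0.10 (adjusted p = 0.0066). For psmc3 the call was lost without rraga replicate 2 (0.31, adjusted p = 0.0582). Medians were 0.05 over core and 0.12 over cap genes. Groups did not overlap for 9 higher members (19.1%, against 16% of all genes) and 3 lower (6.38%, against 16%), against 31.9% of all genes in either direction.

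Markers of neutrophils, phagocytes that take up particles, moved with this comparison. The summed level of 6 genes with the 5 listed neutrophil symbols was 34.4 to 42.2 CPM in rraga mutants against 16.3 to 17.4 CPM in uninjected wild type. Of the 5 tested, 4 were called higher and 0 lower, against 7.58% and 6.41% of all genes. That sum was 16.8 to 22.0 CPM in injected wild type, 18.3 to 24.6 CPM in uninjected and 20.4 to 25.6 CPM in injected triple mutants. With zymosan its members went opposite ways, with lower means of mpx and npsn and a higher mean of mmp9 in both genotypes. A similar sum therefore does not mean unchanged markers. The listed marker lyz had few reads in every group, at most 1.66 CPM in any library. Its counts were 1 in uninjected and 6 in injected wild type and 1 in rraga mutants. Uninjected triple mutants had 24, all in replicate 1, and injected ones 0. Macrophage and microglia markers summed to 9.05 to 14.8 CPM in rraga mutants and 7.39 to 10.9 CPM in uninjected wild type, with 0 of 3 tested called. Markers of T cells and thymus summed to 10.7 to 11.7 CPM in rraga mutants and 9.05 to 10.7 CPM in uninjected wild type, with 0 of 4 called. Their part in the psme4a and psmc3 results was not tested. The marker npsn, on chromosome 7 from 38653481 to 38659477, lies within 0.5 Mb of psmc3, which starts at 38680034. It is thus both a neutrophil marker and a neighbour of psmc3, and these cannot be told apart for it here.

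Set against uninjected triple mutants, the rraga mutants had higher levels of more than a few cap genes. Here 12 members were called higher (25.5%, against 13.9% of all genes) and 2 lower (4.26%, against 11.5%), where 25.4% of all genes were called in either direction. This comparison shares its libraries with those of either mutant against wild type. The cap held 10 of the 12, of which 8 were among its 12 non-ATPase genes, and its median log2 fold change was 0.31, against 0.12 over core genes and 0.00 over all genes tested. The core had 1 gene higher, psma2 (0.57 ± 0.12, adjusted p = 0.00112), and 1 lower, psmb5 (-1.66 ± 0.20, adjusted p = 1.7e-06). For 20 members the rraga libraries lay above with no overlap (42.6%, against 20.3% of all genes) and for 3 below (6.38%, against 19%), against 39.2% of all genes in either direction. The count of 12 was 7 without triple-mutant replicate 2, in which the cap median was lowest, and 6 without rraga replicate 2, in which it was highest among rraga libraries, and that of 2 lower was 1 without rraga replicate 1. Over all genes, leaving out any 1 library gave 1991 to 2815 higher, against 2645 with all, and 1542 to 2420 lower, against 2186.

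The cap genes higher in this comparison came from the ATPase ring, the base and the lid. In the ring psmc1a was at 0.81 ± 0.16, adjusted p = 0.000474, and psmc4 was at 0.48 ± 0.11, adjusted p = 0.00181. Levels of psmc4 were 101, 102 and 107 CPM in uninjected wild type, 124, 114 and 95.7 in zymosan-injected wild type. Triple mutants had 93.9, 72.1 and 86.7 CPM uninjected and 93.6, 96.3 and 105 injected, and rraga mutants had 121, 121 and 111. The base scaffold psmd1, the most abundant member per library in CPM, was at 218, 199.9 and 209.6 CPM in uninjected wild type, 237, 232 and 189 in zymosan-injected wild type. Triple mutants had 183, 162 and 182 CPM uninjected and 194, 186 and 224 injected, and rraga mutants had 238, 245 and 210.4. Its log2 fold change was 0.40 ± 0.10, adjusted p = 0.00625. Rraga libraries lay above triple-mutant libraries for these genes, while uninjected wild type lay between or overlapped the rraga libraries. Levels of psmd4b, a copy of the gene for the ubiquitin receptor of the base, were 43.1, 43.5 and 47.9 CPM in uninjected wild type, 46.9, 52.02 and 40.7 in zymosan-injected wild type. Triple mutants had 40.6, 34.5 and 41.2 CPM uninjected and 40.1, 37.7 and 43.7 injected, and rraga mutants had 51.6, 54.2 and 46.3. The log2 fold change of psmd4b was 0.39 ± 0.11, adjusted p = 0.0131. Of tested neighbours within 0.5 Mb of psmd1, 9 of 17 were called in rraga against triple mutants (52.9%), 6 of them higher. Around psmd8 it was 7 of 16 (43.8%), 5 of them higher, and around psma2 11 of 23 (47.8%), 5 of them higher. The share around the other called cap genes ran from 23.1% (psmd11a) to 34.8% (psmd3), against 25.4% of all genes. The part of these neighbours in the calls was not tested.

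Lid genes in the set were psmd3, psmd8, psmd11a, psmd12, psmd13 and psmd14. Levels of psmd12 were 73.9, 72.01 and 71.3 CPM in uninjected wild type, 87.5, 82.5 and 69.99 in zymosan-injected wild type. Triple mutants had 67.8, 65.2 and 67.5 CPM uninjected and 67.9, 60.7 and 71.7 injected, and rraga mutants had 84.3, 89.05 and 86.1. It had log2 fold change 0.37 ± 0.10, adjusted p = 0.00592 and was called in all 21 settings, as were psma2, psmb5, psmc1a, psmc4, psmd1 and psme4a. Levels of psmd3 were 147, 152 and 161 CPM in uninjected wild type, 169, 181 and 122 in zymosan-injected wild type. Triple mutants had 134, 115 and 126 CPM uninjected and 135, 125 and 166 injected, and rraga mutants had 171, 179 and 148. Levels of psmd13 were 81.7, 76.2 and 85.5 CPM in uninjected wild type, 97.3, 85.7 and 67.5 in zymosan-injected wild type. Triple mutants had 68.1, 62.7 and 62.1 CPM uninjected and 61.4, 66.3 and 79.7 injected, and rraga mutants had 82.3, 83.8 and 77.7. In both, uninjected wild type overlapped the rraga libraries and lay above the triple mutants. Log2 fold changes were 0.41 ± 0.13, adjusted p = 0.0206 for psmd3, 0.34 ± 0.12, adjusted p = 0.0386 for psmd13, 0.31 ± 0.09, adjusted p = 0.0175 for psmd8, 0.43 ± 0.11, adjusted p = 0.00689 for psmd11a and 0.30 ± 0.10, adjusted p = 0.0399 for psmd14. Without rraga replicate 2 the calls of psmd3 (adjusted p = 0.0945), psmd4b (0.0689), psmd8 (0.0667), psmd11a (0.0695), psmd13 (0.113) and psmd14 (0.103) were lost. Without triple-mutant replicate 2 those of psmd3 (0.0929), psmd4b (0.0869), psmd8 (0.0888), psmd13 (0.11) and psmd14 (0.233) were lost, and without replicate 1 of the rraga mutants those of psmd3 (0.0688), psmd8 (0.0786), psmd13 (0.0995) and psmd14 (0.144). Triple-mutant replicate 3 decided psmd3 (0.0506 without it), psmd13 (0.112) and psmd14 (0.0528), and psmd14 also missed the threshold without any 1 injected triple-mutant or uninjected wild-type library (between 0.0505 and 0.055), with no filter (0.0587) and with only the groups compared (0.0675), so that it held in 9 of 21 settings.

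Assembly factors and the remaining regulators gave few calls. The chaperone gene psmd10, which binds an ATPase during assembly of the cap and is known in human as gankyrin, had levels of 0.321, 0.528 and 0.348 CPM in uninjected wild type, 0.7003, 2.04 and 0.629 in zymosan-injected wild type. Triple mutants had 4.77, 0.167 and 1.05 CPM uninjected and 0.0743, 0.609 and 0.501 injected, and rraga mutants had 0.0715, 0.0736 and 0.646. Its uninjected triple-mutant mean rests on replicate 1, with 69 counts, and the groups overlapped. It overlaps the more abundant nxt2 on the opposite strand, so part of its reads may be from nxt2. It was called lower in rraga than in triple mutants (log2 fold change -2.86 ± 0.97, adjusted p = 0.0329), but without that library the value was -1.13 (adjusted p = 0.481), without rraga replicate 1 it was -2.43 (0.128) and without rraga replicate 2 it was -2.45 (0.125). Of its 10 tested neighbours within 0.5 Mb, 5 were called in that comparison (50%, against 25.4% of all genes). Of these 1 was lower, and 4 changed more than 4-fold. Like rraga, which starts at 14027427, psmd10 lies on chromosome 14, from 28464736. The part of its neighbours in the psmd10 call was not tested. None of psmd5, psmd9, psmg1, psmg2 and psmg3, the other chaperones, passed in any of the 7 comparisons.

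The PA28 genes listed were psme2 and psme3. Levels of psme2, a subunit of the interferon-inducible PA28 ring in mammals, were 2.37, 2.04 and 4.96 CPM in uninjected wild type, 4.202, 0.855 and 2.46 in zymosan-injected wild type. Triple mutants had 2.56, 1.67 and 2.102 CPM uninjected and 3.35, 3.99 and 3.79 injected, and rraga mutants had 3.15, 3.46 and 2.297. Levels of psme3, which forms the nuclear PA28 ring, were 24.8, 25.5 and 14.7 CPM in uninjected wild type, 22.2, 17.7 and 12.5 in zymosan-injected wild type. Triple mutants had 22.8, 21.9 and 24.2 CPM uninjected and 12.04, 27.6 and 31.6 injected, and rraga mutants had 15.2, 18.6 and 7.11. Neither passed in any comparison. The rraga libraries lay below uninjected triple mutants for psme3 with no overlap, at -0.75 ± 0.30, adjusted p = 0.071, and this passed with no filter (adjusted p = 0.00623), with only these groups fitted (0.0295) and without injected triple-mutant replicate 1 (0.0329) or rraga replicate 2 (0.0331). Against wild type psme3 was at -0.67 ± 0.30, adjusted p = 0.152, which passed with no filter (adjusted p = 0.0295). The gene psme2 overlaps the more abundant lsm5 on the opposite strand, so part of its reads may be from lsm5, and psme2 was at 0.82 ± 0.43, adjusted p = 0.24 with zymosan in triple mutants. The inhibitor gene psmf1 was at 0.40 ± 0.20, adjusted p = 0.254 with zymosan in wild type and 0.42 ± 0.21, adjusted p = 0.201 in triple mutants, with overlapping libraries. In all, 17 of the 47 tested members passed in at least 1 of the 6 pairwise comparisons and 30 in none. That is 36.2% of the members, 13.3% of the core genes and 68.4% of the cap genes, against 41.2% of all genes tested.

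The name rule misses a few genes whose human counterparts are subunits. The base subunit PSMD2, written in capitals in the files and placed on an unassembled scaffold, was higher in rraga mutants than in wild type (log2 fold change 0.34 ± 0.09, adjusted p = 0.0159) and than in triple mutants (0.40 ± 0.09, adjusted p = 0.00284). CABZ01067681.1, which the name table also gives as PSMD2, was at 0.58 ± 0.13, adjusted p = 0.00329 and 0.45 ± 0.13, adjusted p = 0.0122 in the same comparisons. Reads of this pair may be shared. Neither passed in triple mutants against wild type or with zymosan. The gene si:rp71-45k5.4, PSMA2 in the name table, had levels of 52.3, 60.4 and 57.2 CPM in uninjected wild type, 68.9, 63.2 and 48.97 in zymosan-injected wild type. Triple mutants had 64.3, 49.2 and 63.9 CPM uninjected and 65.7, 62.7 and 67.7 injected, and rraga mutants had 60.6, 59.4 and 57.7. Its libraries overlapped in every comparison, and it was at 0.06 ± 0.12, adjusted p = 0.835 in triple mutants without zymosan and 0.12 ± 0.12, adjusted p = 0.61 with it, where psma2 was called lower.

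Among 11 tested partners of the proteasome that carry other names, adrm1, a ubiquitin receptor of the cap, was higher in triple mutants without zymosan (0.53 ± 0.16, adjusted p = 0.0304) and with it (0.59 ± 0.15, adjusted p = 0.012). It was the only one of the 11 higher without zymosan, where 0 were lower, against 3.93% of all genes higher and 5.84% lower. With zymosan 2 were higher and 1, the small lid subunit sem1, was lower (-0.41 ± 0.10, adjusted p = 0.00514), against 5.21% and 6.66% of all genes. Zymosan raised zfand5a, zfand5b and zfand2a, zinc finger genes whose mammalian products bind the proteasome, in both genotypes, and lowered 0 of the 11. Values were 0.43 ± 0.10, 0.48 ± 0.11 and 0.66 ± 0.15 in wild type and 0.49 ± 0.10, 0.51 ± 0.11 and 0.62 ± 0.15 in triple mutants on the log2 scale, with adjusted p between 0.00155 and 0.00683. Over all genes zymosan raised 6.07% and lowered 3.83% in wild type, and 7.64% and 5.18% in triple mutants. In rraga mutants against wild type txnl1, a thioredoxin-like cap partner, rose (0.66 ± 0.13, adjusted p = 0.00113), zfand5b rose (0.51 ± 0.11, adjusted p = 0.00277) and akirin2, which carries proteasomes into the nucleus, fell (-0.39 ± 0.12, adjusted p = 0.0275). These were 2 higher and 1 lower of the 11, against 7.58% of all genes higher and 6.41% lower.

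Of 6 listed regulators of proteasome genes 3 rose with zymosan in each genotype and 0 fell, against 6.07% of all genes higher and 3.83% lower in wild type and 7.64% and 5.18% in triple mutants. The 6 regulators include Nrf1 and Nrf2 genes, which in mammals raise proteasome genes when the proteasome is blocked or under oxidative stress. Levels of nfe2l1a were 0.897, 1.36 and 1.22 CPM in uninjected wild type, 3.42, 2.89 and 4.34 in zymosan-injected wild type. Triple mutants had 0.829, 1.003 and 1.88 CPM uninjected and 9.37, 5.21 and 7.45 injected, and rraga mutants had 1.36, 0.736 and 0.287. Its log2 fold change with zymosan was 1.62 ± 0.42, adjusted p = 0.015 in wild type and 2.58 ± 0.41, adjusted p = 0.000114 in triple mutants, with no overlap. An Nrf2 gene, nfe2l2a, was at 0.65 ± 0.12, adjusted p = 0.000974 and 0.83 ± 0.12, adjusted p = 4.64e-05, and the other, nfe2l2b, at 1.61 ± 0.36, adjusted p = 0.00472 and 2.18 ± 0.38, adjusted p = 0.000282. Levels of ddi2, a protease that in mammals activates Nrf1, were 42.2, 46.7 and 44.4 CPM in uninjected wild type, 34.7, 34.8 and 37.7 in zymosan-injected wild type. Triple mutants had 36.1, 41.01 and 36.6 CPM uninjected and 31.4, 30.8 and 34.1 injected, and rraga mutants had 38.2, 42.98 and 43.7. Injected libraries lay below uninjected ones in both genotypes, but ddi2 did not pass, at -0.31 ± 0.10, adjusted p = 0.0505 and -0.24 ± 0.10, adjusted p = 0.127. The second Nrf1 gene nfe2l1b was at -0.81 ± 0.30, adjusted p = 0.0916 and -0.40 ± 0.30, adjusted p = 0.45, below uninjected libraries without overlap in wild type. In rraga mutants against wild type 1 of the 6 rose, nfe2l2a (1.04 ± 0.12, adjusted p = 2.99e-06), and 0 fell, against 7.58% and 6.41% of all genes.

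Among 13 tested genes for ubiquitin and its delivery, vcp, the unfoldase that extracts ubiquitinated proteins, and the polyubiquitin gene ubb were lower in triple mutants and 0 were higher. Over all genes 5.84% were lower and 3.93% higher without zymosan, and 6.66% and 5.21% with it. In rraga mutants 1 of the 13 was called higher and 2 lower against wild type (7.58% and 6.41% of all genes). Against triple mutants 7 were higher and 1 lower (13.9% and 11.5% of all genes). Levels of vcp were 133, 130.3 and 150.2 CPM in uninjected wild type, 153, 153 and 121 in zymosan-injected wild type. Triple mutants had 41.3, 36.3 and 37.2 CPM uninjected and 37.8, 38.2 and 39.9 injected, and rraga mutants had 104, 123 and 82.7. Triple mutants lay far below the rest in both conditions, by -1.85 ± 0.13 and -1.88 ± 0.13 on the log2 scale against wild type (adjusted p = 3.27e-10 and 2.29e-10). All rraga libraries of vcp lay below all uninjected wild-type ones. Levels of ubb were 132, 142 and 138 CPM in uninjected wild type, 246, 228 and 217 in zymosan-injected wild type. Triple mutants had 53.4, 48.5 and 50.01 CPM uninjected and 91.6, 78.1 and 106 injected, and rraga mutants had 138, 162 and 142. It was lower by -1.44 ± 0.11 and -1.33 ± 0.10 in triple mutants (adjusted p = 1.37e-09 and 3.99e-09) and rose with zymosan in wild type (0.75 ± 0.10, adjusted p = 2.29e-05) and triple mutants (0.86 ± 0.11, adjusted p = 3.65e-06). Both genes lie on chromosome 5, vcp from 41510387 and ubb from 42092227 (GRCz11), and what neighbouring genes did there was not examined.

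Of 17 tested genes of antigen presentation and interferon, the setting in which inducible subunits are used, an interferon regulatory factor gene rose most with zymosan, 1 of 2 entries named irf1b, by 3.18 ± 0.26 in wild type and 2.70 ± 0.24 in triple mutants on the log2 scale (adjusted p = 7.98e-09 and 3.13e-08). The other irf1b entry did not pass (0.04 ± 0.12, adjusted p = 0.9 in wild type and -0.02 ± 0.12, adjusted p = 0.941 in triple mutants). The transcription factor gene stat1a also rose, by 0.46 ± 0.10 and 0.54 ± 0.10 (adjusted p = 0.00389 and 0.000652). In all 2 of 17 rose and 1 fell in wild type, the one that fell being mhc1zka, at 0 counts in all injected wild-type libraries, and 3 rose and 0 fell in triple mutants. Over all genes 6.07% rose and 3.83% fell in wild type and 7.64% and 5.18% in triple mutants. In the same comparisons psmb10 did not pass and psmb8a, psmb9a, psmb12 and psmb13a stayed at 17 counts or fewer per library. So few counts do not tell whether these genes responded.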

How the data were processed

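RNA of whole larvae was sequenced in 15 libraries, 3 in each of 5 groups, which the labels call biological replicates, and a p-value here reflects only how far such replicates vary. RNA was extracted with the Takara NucleoSpin RNA Plus kit and libraries were made with NEBNext Ultra II, per the labels' protocols. The submitters' processing notes name GRCz11, HISAT2 2.0.5, StringTie 1.3.3b and featureCounts 1.5.0; whether counting used the strand is not stated there. The deposited tables hold raw read counts per gene, and gene lengths as the authors' own values, which served for levels per kilobase. Another 36 per-sample columns were not used. The 3 tables were joined by gene ID, a gene missing from a table was set to 0, and the wild-type counts repeated in 2 tables were equal in all 67893 values.

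Genes passing filterByExpr were fitted in edgeR 4.0.16 (R 4.3.3) with TMM scaling, 1 model of 5 group means and the quasi-likelihood test, giving 7 comparisons with Benjamini-Hochberg adjustment over all 19006 genes and a threshold of 0.05. Fold changes are log2 with SE. Tested on simulated counts for uninjected triple mutants against wild type, it recovered 2.1% of genes changed by 0.5 on the log2 scale and 69.8% of those changed by 1. The simulation gave all genes the same spread and changed fewer genes than were called in the data. Its shares therefore do not carry over to single members, whose SE is given. A gene that did not pass may still differ, within what its SE allows. Members and gene lists were chosen with earlier results of these data known. Named are members called in a comparison, catalytic and immune subunits and the genes of the lists. Alternatives were size factors of DESeq2 (RLE), no filter, DESeq2 1.42.0, a replicate block, a fit of only the groups compared, and leaving out each library.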

Additional observations from a re-analysis of the deposited data

How the results depend on the processing

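Of the summary values over all alternatives 708 kept within 1.5 times or their spread and 76 moved; of single genes 970 kept their side of the threshold, 58 passed it newly and 88 no longer passed, and no direction reversed. In uninjected triple mutants the members higher went from 1 to 2 with no filter, with DESeq2 and with only the groups compared, and those lower from 4 to 2 with RLE, no filter and the replicate block. With only the groups compared, psmd13 (adjusted p = 0.0207) and psmd3 (0.0421) were newly called lower there by edgeR, and none of the 4 was lost. With zymosan in triple mutants the members higher went from 2 to 1 with no filter. For the interaction, genes higher over all genes went from 6 to 30 with no filter, 17 with DESeq2 and 10 with only the groups compared, and those lower from 21 to 47 and 37 with the first 2 of these. In rraga mutants against wild type the members lower went from 0 to 2 with no filter and 1 with DESeq2 and with only the groups compared; against triple mutants those lower went from 2 to 4 with no filter and 1 with the replicate block. The cause was not tested. Leaving out 1 library at a time gave, in uninjected triple mutants, 1 to 3 members higher and 0 to 6 lower, and 505 to 914 and 737 to 1260 of all genes; with zymosan 1 to 3 and 0 to 8, 667 to 1502 and 863 to 1661 of all genes, and a cap median of -0.30 to -0.09. For zymosan in wild type it gave 1 to 2 members higher and 0 lower, and 815 to 1270 and 456 to 948 of all genes. In triple mutants zymosan gave 1 to 3 members higher and 0 to 2 lower, and 1061 to 1582 and 621 to 1115 of all genes. For the interaction it gave 2 to 17 of all genes higher and 14 to 33 lower. Rraga mutants against wild type had 1 to 3 members higher and 0 to 1 lower, and 1021 to 1613 and 802 to 1406 of all genes. Against triple mutants they had 6 to 16 members higher and 1 to 3 lower, and 1991 to 2815 and 1542 to 2420 of all genes. Members lower in uninjected triple mutants were 0 without triple-mutant replicate 2. Same-numbered libraries did not deviate together (correlations -0.101 to 0.074 over 30 pairs), and 1 of 15 libraries correlated best with its own number. No pairing by number was seen, though these correlations cannot exclude a weak one. Under the replicate block psmd11a (adjusted p = 0.0674) and psmd14 (0.0564) in uninjected triple mutants, and psmd10 (0.0638) and psmd13 (0.0522) in rraga against triple mutants, no longer passed. Low counts limit what can be said of psmb8a, psmb9a, psmb12, psmb13a and psmd10.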
